A study of Homo sapiens with 6 samples.

Results

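The lipid mediator enzymes described here are 10 genes of endocannabinoid, prostaglandin and leukotriene turnover, out of 26485 gene symbols in a table of RNA sequencing read counts. They were taken by symbol (MGLL, HPGD, DAGLB, FAAH, PTGES2, PTGES3, PTGR1, ALOX5, ALOX5AP and LTA4H). The cells were OCI-LY8, an established line from a human germinal centre B-cell lymphoma, grown in medium with serum. In 3 libraries the cells carried a guide RNA against SETD1B, a histone H3 lysine 4 methyltransferase (genotype label SETD1B knockout), and in 3 they carried the non-targeting guide sgNTC1 (genotype label WT). The labels give no drug treatment or time and name no clone or separate culture, so p-values cover only the spread between the libraries, and that spread may be technical. The series' design text names another line, OCI-LY19, as KMT2D mutant; the sample labels, which all name OCI-LY8, were followed here.

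Endocannabinoids and eicosanoids are short-lived signalling lipids made from membrane phospholipids, many of them built on arachidonic acid. Diacylglycerol lipases such as DAGLB form 2-arachidonoylglycerol, and monoacylglycerol lipase, encoded by MGLL, hydrolyses it and releases arachidonic acid. Cyclooxygenases and prostaglandin E synthases turn arachidonic acid into prostaglandins, which HPGD inactivates by oxidation. 5-lipoxygenase (ALOX5) with its helper protein (ALOX5AP) makes leukotriene A4, and LTA4H converts that to leukotriene B4. B lymphocytes are known to carry cannabinoid receptors.

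The set was chosen by function with this comparison known, and MGLL and HPGD, which give it its name, were selected on their knockout against control fold changes. Values of the members are therefore given as a description, without p-values, and nothing is read from their counts. Of the 10 members, 9 had a read in at least 1 library and 8 had enough reads to enter the fit across 12907 genes (edgeR's quasi-likelihood test with Benjamini-Hochberg adjustment). MGLL and ALOX5AP were among the genes called lower and HPGD among those called higher at an adjusted p under 0.05, which makes 3 of 8, while 15.0% of all tested genes were called. The same 3 members were those whose knockout and control libraries did not overlap, which was so for 37.7% of all tested genes. The median log2 fold change, knockout minus control, was -0.03 over the 8 tested members and -0.01 over all tested genes.

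Total counts were 29230551 to 31758876 in the knockout libraries and 28726108 to 34453249 in the control libraries. SETD1B itself stood at 87.4, 90.2 and 55.1 normalised counts (CPM, reads scaled to TMM-adjusted library sizes) in knockout replicates 1, 2 and 3, and at 53.8 to 59.8 CPM in the controls, so its transcript level does not check the edit (log2 0.47, SE 0.18, edgeR adjusted p = 0.14; adjusted p from 8.1e-07 to 0.34 over the alternatives). Knockout replicate 3 stood apart. In the tenth of genes highest in GC content its median deviation from the mean of all libraries was -0.60 on the log2 scale, against 0.16 and 0.31 in knockout replicates 1 and 2 and 0.01 to 0.10 in the controls. Each group rests on 1 guide name, so loss of SETD1B and any other difference between these cells cannot be told apart. B-cell genes were abundant, with CD79A at 276 to 413 CPM in knockout and 332 to 349.8 CPM in control libraries, although CR2 had no read. Among these markers MS4A1 fell (log2 -0.77, edgeR adjusted p = 0.0013), CD22 and PAX5 rose (log2 0.59 and 0.66, edgeR adjusted p = 0.0026 and 0.0040), and CD79A and CD79B did not pass. All 5 mast cell markers were at 0. The 5 T-cell markers summed to 0.19 to 0.51 CPM in the knockouts and 0.59 to 0.92 CPM in the controls, with CD3D at 0. The 6 fibroblast and stroma markers summed to 2.63 to 3.64 CPM in the knockouts and 0.35 to 0.49 CPM in the controls, with COL3A1 at 0. LUM, at 2.14, 2.05 and 3.10 CPM in the knockouts and 0 reads in the controls, and DCN carried that sum, while COL1A1 averaged 0.15 ± 0.03 CPM in the knockouts and 0.34 ± 0.05 CPM in the controls, and PDGFRB had reads in the control libraries but none in the knockouts.

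MGLL was the member with the lowest knockout level relative to control. It had 6.86, 6.38 and 5.54 CPM in knockout replicates 1, 2 and 3, against 35.6, 33.3 and 35.2 CPM in control replicates 1, 2 and 3. The highest knockout library lay far below the lowest control library. Means were 6.26 ± 0.67 CPM in the knockouts and 34.7 ± 1.25 CPM in the controls (SD, n = 3 each), a 5.54-fold lower level with a log2 fold change of -2.47 (SE 0.10). Ranked from the lowest fold change, it was number 70 of the 12907 tested genes. The value lay between -2.52 and -2.39 in the 16 alternative settings, including the fit without knockout replicate 3. MGLL spans 127689062 to 128052190 on chromosome 3 (hg38, minus strand). Its body overlaps SEC61A1 and KBTBD12 on the other strand, with 0 shared exon bases in the annotation. SEC61A1 also fell, by less (log2 -0.24, SE 0.06, edgeR adjusted p = 0.030). The nearest tested gene at lower coordinates, ABTB1, had a log2 fold change of 0.08 (edgeR adjusted p = 0.89) and the one at higher coordinates, KBTBD12, one of 0.21 (edgeR adjusted p = 0.065). The 62 other tested genes within 5 Mb had a median of -0.04. Of these 8 fell and 3 rose, beside 9.33% and 5.71% of all tested genes.

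DAGLB, which forms the lipid that MGLL hydrolyses, did not follow MGLL. It had 50.7, 51.8 and 41.4 CPM in knockout replicates 1, 2 and 3, against 45.4, 45.5 and 45.4 CPM in the controls. The knockout libraries fell on both sides of the controls (log2 0.08, SE 0.09). Without knockout replicate 3 all knockout values were higher and the gene was called (log2 0.17, SE 0.04), as it was with a GC offset but not with a GC offset and the replicate block. DAGLB shares 376 of its 5756 annotated exon bases with KDELR2 on the same strand, so some reads may be uncertain, and KDELR2 fell (log2 -0.32, edgeR adjusted p = 0.0094). Within each library the log2 ratio of MGLL to DAGLB, both per kilobase of transcript, was -3.66, -3.79 and -3.67 in knockout replicates 1, 2 and 3 and -1.12, -1.22 and -1.14 in control replicates 1, 2 and 3. The mean ratio thus differed by -2.55 on the log2 scale between knockout and control. FAAH, the hydrolase of anandamide, had few reads, with 1.68, 1.56 and 0.92 CPM in the knockouts and 1.04, 1.31 and 1.05 CPM in the controls. Its groups overlapped (log2 0.29, SE 0.26).

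**Figure D1:**
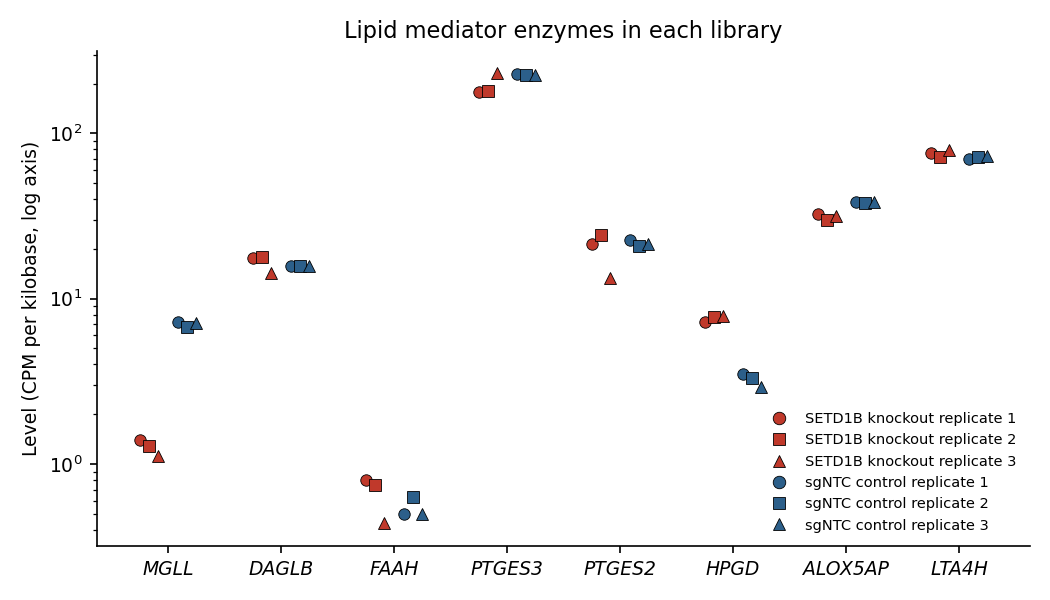
Levels of the 8 tested members in each library, in CPM per kilobase of the longest annotated transcript on a log axis; red marks knockout libraries, blue control libraries, and shapes mark replicate numbers. MGLL sits at a mean of 1.27 in the knockouts and 7.02 in the controls, HPGD at 7.63 in the knockouts and 3.25 in the controls.

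Other genes of endocannabinoid turnover that passed the test were lower in the knockouts. Of 8 tested genes for formation and hydrolysis outside the members, 2 fell and 6 did not pass. That is 25% called, beside 15.0% of all tested genes (9.33% lower and 5.71% higher), and is given as a description. ABHD12, another hydrolase of 2-arachidonoylglycerol, fell to 17.2 ± 1.76 CPM in the knockouts, against 22.7 ± 1.20 CPM in the controls (log2 -0.40, SE 0.09, edgeR adjusted p = 0.030); of the 18 other tested genes within 5 Mb of ABHD12, 7 fell and 0 rose, with a median of -0.24. NAAA, an acid hydrolase of N-acylethanolamines, had 15.3 ± 0.48 CPM in the knockouts and 19.5 ± 1.06 CPM in the controls (log2 -0.35, SE 0.08, edgeR adjusted p = 0.024). ABHD6, a further hydrolase of the same monoacylglycerol, missed the threshold (log2 -0.29, edgeR adjusted p = 0.075), as did GDE1, GDPD1 and ABHD4 (log2 -0.23, -0.24 and -0.66, edgeR adjusted p = 0.062, 0.19 and 0.17). NAPEPLD, which forms N-acylethanolamines, and FAAH2, a relative of FAAH, had positive values and did not pass either (log2 0.52 and 0.27, edgeR adjusted p = 0.084 and 0.14). The knockout libraries of NAPEPLD and FAAH2 all lay above their control libraries, and those of ABHD6, GDE1 and GDPD1 all lay below. Over all tested genes, 16.5% separated upward in this way and 21.3% downward. DAGLA, the other diacylglycerol lipase, had no read in any library.

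Both cannabinoid receptor genes fell. CNR1, which encodes the receptor CB1, had 94.1, 88.9 and 88.5 CPM in knockout replicates 1, 2 and 3, against 145, 153 and 150.2 CPM in control replicates 1, 2 and 3 (log2 -0.72, SE 0.05, edgeR adjusted p = 3.1e-04). CNR2, which encodes CB2, the receptor typical of immune cells, had 4.50, 5.06 and 4.37 CPM in the knockouts, against 7.48, 8.70 and 8.35 CPM in the controls (log2 -0.82, SE 0.11, edgeR adjusted p = 0.0038). The groups did not overlap for either receptor. GPR55 and TRPV1, receptors that also respond to such lipids, had log2 fold changes of -0.11 and 0.14 and did not pass (edgeR adjusted p = 0.70 and 0.63).

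HPGD, the prostaglandin-degrading dehydrogenase, was higher in the knockouts. It had 21.8, 23.5 and 23.9 CPM in knockout replicates 1, 2 and 3, against 10.6, 10.1 and 8.87 CPM in control replicates 1, 2 and 3. The lowest knockout library lay far above the highest control library. Means were 23.1 ± 1.14 CPM in the knockouts and 9.82 ± 0.86 CPM in the controls (SD, n = 3 each; log2 1.23, SE 0.09), and the value lay between 1.16 and 1.29 in the 16 alternatives. Ranked from the highest fold change, it was number 51 of the tested genes. Epithelial cells are a known site of HPGD. The 5 epithelial markers summed to at most 0.035 CPM in a knockout library and 0.12 CPM in a control library. Whether cells of any other type contributed to the HPGD difference was not tested. Per kilobase, the order of HPGD and MGLL differed between the groups: HPGD stood above MGLL in the knockouts (7.63 ± 0.38 and 1.27 ± 0.14) and below it in the controls (3.25 ± 0.29 and 7.02 ± 0.25). Both genes were selected on their fold changes in opposite directions, so this change of order is not a separate result.

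HPGD lies at 174490177 to 174523154 on chromosome 4 (hg38, minus strand) with no overlapping gene in the annotation. The 14 other tested genes within 5 Mb had a median of -0.05. Of these 3 fell and 1 rose, beside 9.33% and 5.71% of all tested genes. The nearest tested genes did not share the difference of HPGD. CEP44, at lower coordinates, had a log2 fold change of -0.04 (edgeR adjusted p = 0.79), while GLRA3, a glycine receptor subunit gene 114 kb away on the other side, fell to 0.68, 1.49 and 1.39 CPM in the knockouts, against 7.54, 7.60 and 7.56 CPM in the controls (log2 -2.67, SE 0.24, edgeR adjusted p = 5.8e-04).

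The promoters of HPGD and ALOX5AP, members called in opposite directions, are shown because they differ in CpG dinucleotides, the sequence feature by which H3K4 methyltransferase complexes of the SETD1 type are known to be drawn to promoters. RefSeq windows (GRCh38.p14) were at hand for 8 of the 10 members, not for MGLL and ALOX5. Each sequence gives the 250 bases before an annotated start, with CpG in capitals.
HPGD, chr4:174522489-174522738, minus strand: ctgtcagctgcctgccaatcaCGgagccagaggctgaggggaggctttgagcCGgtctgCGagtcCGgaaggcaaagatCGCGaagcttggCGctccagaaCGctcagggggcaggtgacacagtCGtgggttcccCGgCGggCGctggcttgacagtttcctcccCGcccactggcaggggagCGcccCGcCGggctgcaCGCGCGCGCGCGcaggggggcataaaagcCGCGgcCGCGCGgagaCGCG
ALOX5AP, chr13:30713235-30713484, plus strand: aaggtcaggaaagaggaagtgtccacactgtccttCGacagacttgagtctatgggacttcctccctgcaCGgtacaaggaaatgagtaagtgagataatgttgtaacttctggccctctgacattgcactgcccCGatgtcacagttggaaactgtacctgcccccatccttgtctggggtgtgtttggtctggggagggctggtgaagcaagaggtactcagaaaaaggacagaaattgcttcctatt

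The HPGD window held 29 CpG, a number reached by 14.1% of the 35116 windows in the table, and the ALOX5AP window held 3, a number reached by 77.1%. A second annotated HPGD start lies farther upstream and its window held 4. Of the members whose groups overlapped, PTGES3 had 30 CpG, FAAH 29, DAGLB 22 and LTA4H 14, and the PTGES2 starts had 21 to 35. The silent PTGR1 had 13. Which start is used in these cells was not measured, nor were SETD1B binding and H3K4 methylation in these libraries. Whether CpG content relates to the differences between the groups was not tested.

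PTGES3 and PTGES2, which encode cytosolic and membrane-associated prostaglandin E synthases, varied with knockout replicate 3. PTGES3, also known as the HSP90 co-chaperone p23, had 371, 374 and 479.9 CPM in knockout replicates 1, 2 and 3, against 478, 468 and 466 CPM in the controls. Only replicate 3 of the knockouts reached the control level (log2 -0.20, SE 0.10), and without it the gene was called lower (log2 -0.34, SE 0.03). PTGES2 moved the other way, with 49.7, 56.5 and 31.1 CPM in knockout replicates 1, 2 and 3, against 52.8, 48.8 and 49.7 CPM in the controls (log2 -0.14, SE 0.20). Without replicate 3 its log2 fold change was 0.07. The PTGES3 transcript is low in GC (41.8%) and that of PTGES2 high (65.7%). In the fit with a GC offset PTGES3 was called lower (log2 -0.21) and PTGES2 was not called (log2 -0.10). PTGES3 has 5 annotated pseudogenes of its name, so its reads may be split in ways the sources do not state.

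**Figure D2:**
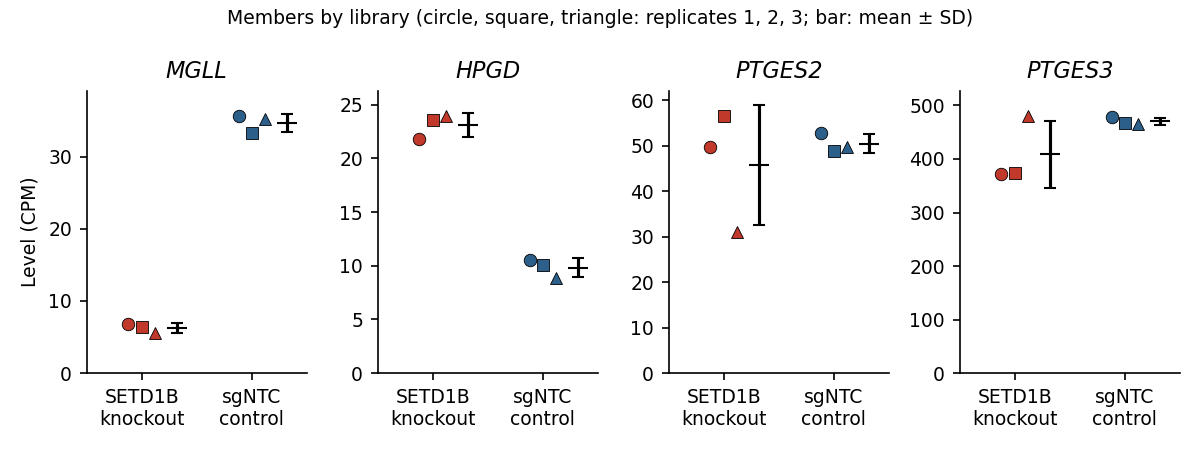
Levels in CPM of 4 members in the knockout libraries (left, red) and control libraries (right, blue), with the mean and SD as a bar. MGLL and HPGD libraries separate by group, while knockout replicate 3 (triangle) lies apart from the other knockout libraries for PTGES2 (31.1 CPM) and PTGES3 (479.9 CPM).

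PTGR1, a reductase that inactivates prostaglandins and leukotriene B4, had 0 reads in all 6 libraries, which at 3 counts per library allows up to 0.095 to 0.104 CPM in the knockouts and 0.087 to 0.104 CPM in the controls (counting error only). Its relatives were present and fell. PTGR2 had 30.0 ± 2.49 CPM in the knockouts and 37.5 ± 1.71 CPM in the controls (log2 -0.32, SE 0.08, edgeR adjusted p = 0.035). ZADH2, now named PTGR3, had 25.0, 26.3 and 26.4 CPM in the knockouts, against 46.6, 43.1 and 45.3 CPM in the controls (log2 -0.80, SE 0.06, edgeR adjusted p = 3.7e-04); of the 19 other tested genes within 5 Mb of ZADH2, 7 fell and 0 rose, with a median of -0.15. ABCC4, a pump that exports prostaglandins among other substrates, also fell (log2 -0.32, SE 0.07, edgeR adjusted p = 0.023). All 3 tested genes of prostanoid inactivation and transport outside the members thus fell, beside 9.33% of all tested genes, while HPGD was higher. The calls of PTGR2 and ABCC4 were each lost in 7 of 16 alternatives.

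Of the enzymes upstream, PTGS1, the constitutive cyclooxygenase, fell to 6.60, 6.52 and 5.95 CPM in knockout replicates 1, 2 and 3, against 9.51, 9.36 and 9.43 CPM in the controls (log2 -0.57, SE 0.09, edgeR adjusted p = 0.0069). PTGS2, the inducible cyclooxygenase, and PLA2G4A, the main cytosolic phospholipase that frees arachidonic acid, had no read in any library. PTGES, the inducible prostaglandin E synthase, had at most 1 read in a library. CBR1, a carbonyl reductase that acts on prostaglandin E2, fell (log2 -0.33, SE 0.07, edgeR adjusted p = 0.025); the 122 other tested genes of its chromosome, 21, had a median of -0.42 and 70 of them fell. None of the 10 tested genes for arachidonate release and reacylation passed with edgeR (adjusted p from 0.12 to 0.97), 1 had an unadjusted p under 0.05, and DESeq2 and limma-voom each called 0. The receptor gene PTGER4, which encodes the prostaglandin E2 receptor EP4, fell to 3.27, 3.29 and 3.23 CPM in the knockouts, against 4.96, 5.32 and 5.70 CPM in the controls (log2 -0.70, SE 0.11, edgeR adjusted p = 0.0059). PTGDR2, the other prostanoid receptor gene tested, had few reads and a positive value and did not pass (log2 0.79, SE 0.29, edgeR adjusted p = 0.11).

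**Figure D3:**
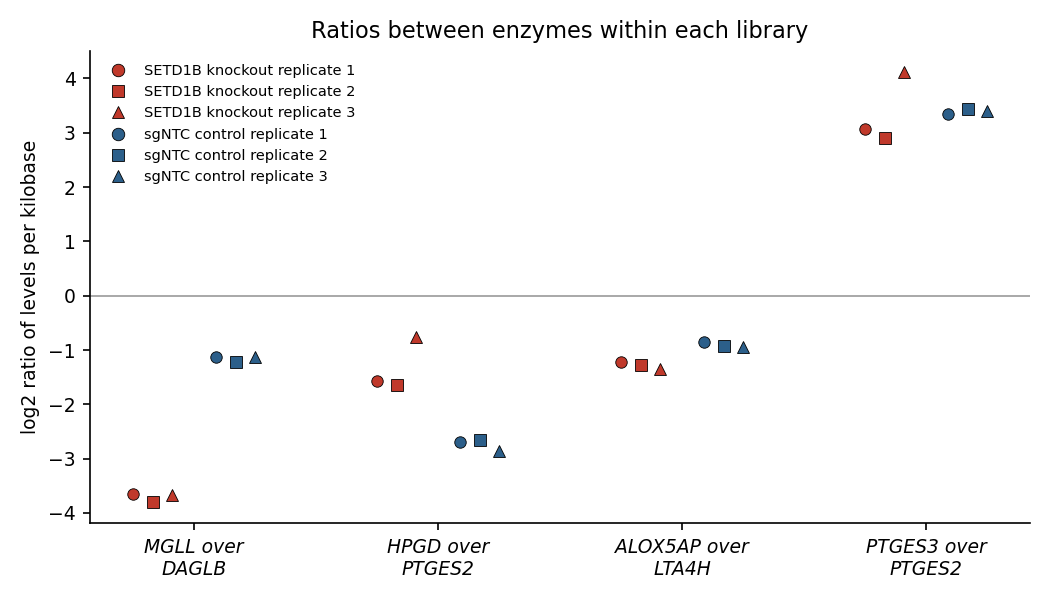
Log2 ratios of levels per kilobase between pairs of members in each library, knockout left and control right within a pair. MGLL over DAGLB lies between -3.79 and -3.66 in the knockouts and between -1.22 and -1.12 in the controls; for HPGD over PTGES2 and PTGES3 over PTGES2, knockout replicate 3 lies above the other knockout libraries.

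The leukotriene members were uneven in level. ALOX5 had 5, 5 and 0 reads in knockout replicates 1, 2 and 3 and 12, 5 and 0 reads in control replicates 1, 2 and 3, too few for the fit. Its partner genes were well expressed. ALOX5AP, the membrane protein that presents arachidonic acid to 5-lipoxygenase, had 39.9, 36.5 and 38.4 CPM in knockout replicates 1, 2 and 3, against 47.2, 46.7 and 46.8 CPM in the controls. The groups did not overlap, and the difference was small (log2 -0.29, SE 0.06). Its call was lost when any 1 of the 3 control libraries or knockout replicate 1 was left out, at an adjusted p under 0.01, and in the fit blocked by replicate number; its values ran from -0.31 to -0.26 over the alternatives. LTA4H had 162, 154 and 170.2 CPM in the knockouts, against 149, 154 and 157 CPM in the controls, and its groups overlapped (log2 0.08, SE 0.06).

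Per kilobase, PTGES3 was highest of the members in the controls (227 ± 3.16), followed by LTA4H (71.6 ± 1.95), ALOX5AP (38.3 ± 0.22), PTGES2 (21.6 ± 0.90), DAGLB (15.7 ± 0.01), MGLL, HPGD and FAAH (0.54 ± 0.07). In the knockouts PTGES2 was at 19.6 ± 5.64 and DAGLB at 16.6 ± 1.98 (SD, n = 3 each). PTGES2 stood above DAGLB in knockout replicates 1 and 2 (21.3 and 24.2, against 17.5 and 17.9). It stood below DAGLB in knockout replicate 3 (13.3, against 14.3), the library set apart by GC content.

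Among other leukotriene genes, COTL1, an actin-binding protein known to bind 5-lipoxygenase, fell to 90.6 ± 7.51 CPM in the knockouts, against 125 ± 5.45 CPM in the controls (log2 -0.46, SE 0.07, edgeR adjusted p = 0.0069). The microsomal glutathione transferases moved apart. MGST2, which can make leukotriene C4, fell (log2 -0.39, SE 0.07, edgeR adjusted p = 0.011), and MGST3 rose to 10.8, 10.8 and 10.9 CPM in the knockouts, against 7.57, 7.01 and 7.17 CPM in the controls (log2 0.58, SE 0.09, edgeR adjusted p = 0.0048). CYSLTR1, a receptor for cysteinyl leukotrienes, fell (log2 -0.61, SE 0.13, edgeR adjusted p = 0.023), while the leukotriene B4 receptors LTB4R and LTB4R2 did not pass (edgeR adjusted p = 0.42 and 0.62). Some of these genes are also typical of myeloid cells. The 10 listed myeloid markers summed to 4.24 to 5.63 CPM in the knockouts and 9.33 to 11.7 CPM in the controls. ITGAM carried most of that difference, at 2.39 ± 0.35 CPM in the knockouts and 7.29 ± 0.84 CPM in the controls. LYZ also fell (log2 -1.29, edgeR adjusted p = 0.032) and CD68 did not pass (edgeR adjusted p = 0.60). CD14 and CSF1R had too few reads for the fit and slightly higher means in the knockouts. MPO, FCGR1A, S100A8 and S100A9 were at 0. The labels name only the OCI-LY8 line, and whether any myeloid cells were present was not tested. In bulk RNA, fewer cells of a type and less RNA per cell cannot be told apart.

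Across the pathway list, which holds 79 genes outside the members, 43 were tested, and 13 fell, 1 rose and 29 did not pass. That is 32.6% called, beside 15.0% of all tested genes (9.33% lower and 5.71% higher), and the median log2 fold change was -0.24 in the list against -0.01 over all genes. The list was chosen with earlier results of these data known, so these shares and those that follow are a description only. Within 5 Mb of CBR1, ABHD12 and ZADH2, 31 of 47, 7 of 18 and 7 of 19 other tested genes fell and 0 rose. Without knockout replicate 3, 20 list genes fell and 8 rose, which is 62.2% called, beside 44.4% of all genes tested there. Without control replicates 1, 2 and 3 in turn 6 fell and 1 rose each time (15.6% to 15.9% called, beside 5.98% to 6.44% of all genes). Without knockout replicate 1, 7 fell and 1 rose (18.2%, beside 8.45%), and with the replicate block 8 fell and 1 rose (20.9%, beside 10.3%). With the GC offset 20 list genes fell and 4 rose (55.8%, beside 37.4%), and of all tested genes 2509 fell and 2319 rose, against 1204 and 737 without it. CNR1, CNR2, PTGS1, ZADH2, PTGER4, COTL1 and MGST3 were called in every alternative in which they were tested, with a highest adjusted p of 0.044 over edgeR, DESeq2 and limma-voom fits. The calls of NAAA, ABHD12, CBR1, PTGR2, ABCC4, MGST2 and CYSLTR1 were lost when any 1 control library was left out, with edgeR adjusted p up to 0.16.

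**Figure D4:**
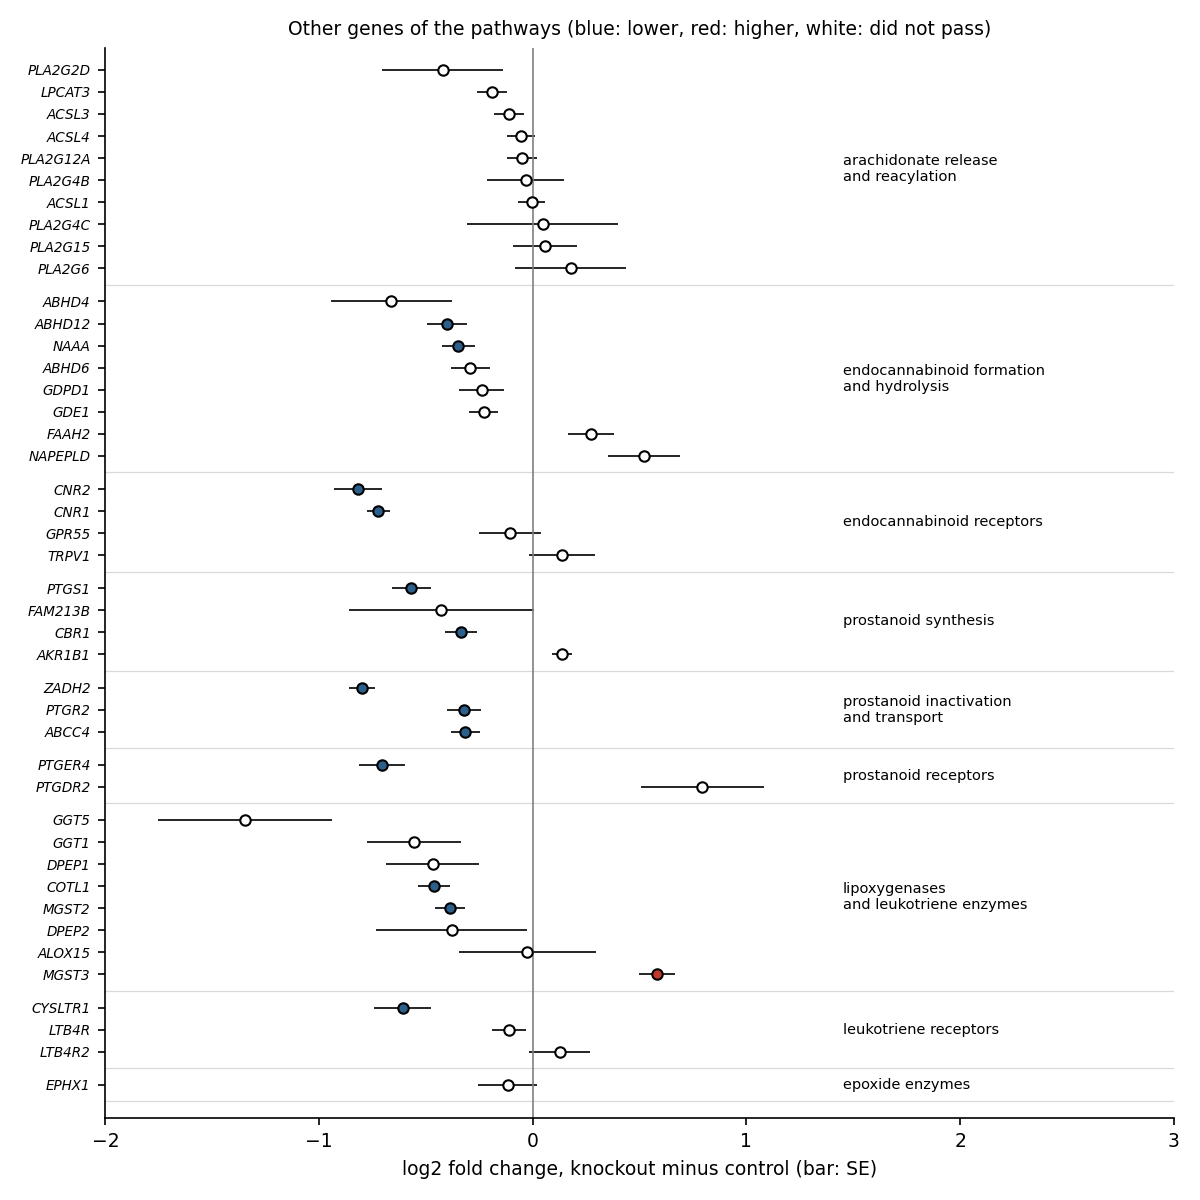
Log2 fold changes, knockout minus control, of the 43 tested pathway genes outside the members, by role; bars are the SE, blue marks genes that fell, red the 1 that rose and white those that did not pass. Both cannabinoid receptors and all 3 genes of prostanoid inactivation and transport lie left of 0.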

How the data were processed

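Per the labels' protocols, RNA was purified on columns and stranded poly(A) mRNA libraries were made. The build was hg38 and the tools included featureCounts, HISAT2, Trimmomatic, DESeq2 and CASAVA 1.8, per the submitters' processing notes; for the annotation, strand setting and multi-mapping reads the treatment was not stated there. The authors deposited raw read counts per gene symbol for 6 libraries (0 per-sample columns were not used); a deposited table of log2 values for part of the genes was not used here. Members and lists were chosen with earlier results of these data known.

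Groups and replicate numbers came from titles. The fit used edgeR 4.0.16 (R 4.3.3): filterByExpr, TMM, a robust quasi-likelihood fit on group, Benjamini-Hochberg over 12907 genes, threshold 0.05. SE stands for the absolute log2 fold change over the square root of F. Alternatives were other scalings and filters, DESeq2 1.42.0, limma-voom (limma 3.58.1), a replicate block, each library left out, a GC offset (GC known for 96.6% of tested genes) and a threshold of 0.01. Positions and transcript lengths came from GENCODE on hg38, to which 23899 symbols matched by name and 723 by an alias, leaving 1863 unmatched. Named genes are the members, SETD1B and every pathway list gene that passed (at most 4 per role). The tested neighbours of MGLL and HPGD and the marker sums are given too. Untested or unpassed list genes, single markers, SEC61A1 and KDELR2 were named after their values were seen. Replicate pairs differed beyond sampling noise. Chi-square per degree of freedom was 1.83 to 3.78 for control pairs and 5.41 for knockout replicates 1 and 2. It was 45 and 57.1 for knockout replicate 3 against replicates 1 and 2. The fit was tested on simulated data, where it recovered 41.2% of changes of log2 0.5, 83.3% of log2 1 and 95.5% of log2 2. Of its calls there, 6.41% were false. A gene that did not pass may therefore still differ. One B-cell marker is not reported here.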

Additional observations from a re-analysis of the deposited data

How the results depend on the processing

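The number of called genes, 1941 among all tested, was 779 to 5795 when single libraries were left out, 4828 with the GC offset, 4236 with the GC offset and the block, and 828 at an adjusted p under 0.01. In the pathway list, 14 called genes became 7 to 28 without single libraries, 9 with the replicate block, 24 with the GC offset, 22 with the GC offset and the block, and 7 at an adjusted p under 0.01. Called members numbered 3, with 2 to 5 without single libraries (5 without knockout replicate 3), 2 with the replicate block and 5 with the GC offset. The members' median log2 fold change of -0.03 was -0.15 with no low-count filter, where 9 members entered, -0.14 with at least 5 CPM in 3 libraries, where 7 entered, and -0.062 to 0.058 without single libraries. The number of members entered differs by construction; otherwise the cause was not tested.

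The labels name no culture or day shared by same-numbered libraries, so the numbers were not taken to pair them. Same-numbered libraries deviated together little (correlations of -0.0088, -0.10 and 0.081 for replicates 1, 2 and 3). With 3 libraries per group, and knockout replicate 3 apart, these correlations cannot decide whether libraries were paired. Depth limits ALOX5, FAAH and PTGR1 most.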
